A study of Mus musculus with 2 samples.

Results

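A set of 10 genes of the unfolded protein response and the integrated stress response was examined in mouse liver. They are Herpud1, Chac1, Asns, Calr, Hspa5, Ddit3, Atf4, Trib3, Xbp1 and Dnajb9. The 10 genes were read by 23 probe sets, those that carry one of these names as their only gene symbol, of 34945 probe sets with a single symbol and 45101 on each array. One Affymetrix array was made from the liver of Bglu3 congenic mice and 1 from that of C57BL/6 apoE-/- control mice. Bglu3 is a blood glucose locus of mouse chromosome 1. In a congenic strain a piece of donor chromosome has been bred onto another background, here labelled C57BL/6. All mice went from weaning at 3 weeks onto chow, received a Western diet from 6 weeks for 12 weeks, and are labelled hyperglycemic. The number of mice behind an array, their sex, the donor strain, the ends of the donor piece and the apoE genotype of the congenic mice do not appear in the labels. A group of 1 array has no spread between animals and allows no test, and every difference below describes these 2 arrays.

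When unfolded protein builds up in the endoplasmic reticulum (ER), the sensors PERK, IRE1 and ATF6 start the unfolded protein response. PERK belongs to a family of kinases that phosphorylate the translation factor eIF2, which lowers general translation but favours translation of ATF4, and this shared outcome, also reached through amino acid shortage, is the integrated stress response. IRE1 splices the Xbp1 messenger, ATF6 is cut and moves to the nucleus, and both XBP1 and ATF6 raise ER chaperones and the machinery that degrades misfolded proteins. The liver secretes much of the blood's protein and is a main site of these responses.

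The 10 genes did not differ in a common direction. Herpud1, a membrane component of ER-associated degradation, and Chac1, an enzyme that breaks down glutathione, were each lower in the congenic array by about the same amount, 2.07-fold and 2.05-fold. Asns, the asparagine synthetase, was higher by 1.82-fold, although from a dim signal. The other 7 genes lay within 1.5-fold, among them the chaperone gene Hspa5 and the transcription factor genes Atf4, Ddit3 and Xbp1. Folds are of intensity + 5, a pseudocount that understates the differences of dim genes.

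Promoter sequences are shown for the 3 genes past 1.5-fold and for 2 ER chaperone genes that were not, because they carry the DNA elements through which these pathways are known to act. The sequences are from RefSeq (GRCm38.p6), run 5′ to 3′ in the direction of the gene, and cover 250 bases before the gene start and 50 bases from it. All 10 genes matched a window. The search covered 4 elements on both strands. These were the ER stress response element (CCAAT and CCACG with 9 free bases between them), which ATF6 binds, and the ER stress response element II (ATTGG and CCACG with 1 free base between them). The others were the unfolded protein response element TGACGTGG and the C/EBP-ATF response element TGATGNAA, which ATF4 binds together with C/EBP proteins. Capitals mark every match of these elements.
Herpud1 (chr8:94386179-94386478, plus strand): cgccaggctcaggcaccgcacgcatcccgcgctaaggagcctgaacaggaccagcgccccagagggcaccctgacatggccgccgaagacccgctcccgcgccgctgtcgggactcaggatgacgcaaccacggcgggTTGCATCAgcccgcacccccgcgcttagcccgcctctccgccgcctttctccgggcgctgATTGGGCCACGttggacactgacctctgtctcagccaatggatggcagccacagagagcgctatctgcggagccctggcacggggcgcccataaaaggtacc
Chac1 (chr2:119350992-119351291, plus strand): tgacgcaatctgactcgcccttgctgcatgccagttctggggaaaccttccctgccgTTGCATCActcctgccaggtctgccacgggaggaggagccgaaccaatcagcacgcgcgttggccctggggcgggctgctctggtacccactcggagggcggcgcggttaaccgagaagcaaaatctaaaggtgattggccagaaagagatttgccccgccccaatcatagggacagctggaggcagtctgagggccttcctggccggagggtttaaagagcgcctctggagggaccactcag
Asns (chr6:7693160-7693459, minus strand): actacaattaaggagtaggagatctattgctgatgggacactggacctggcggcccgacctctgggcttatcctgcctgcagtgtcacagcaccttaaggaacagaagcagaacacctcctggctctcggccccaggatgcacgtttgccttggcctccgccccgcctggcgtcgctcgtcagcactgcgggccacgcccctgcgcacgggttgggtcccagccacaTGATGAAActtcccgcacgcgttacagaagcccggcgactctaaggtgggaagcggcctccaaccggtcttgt
Hspa5 (chr2:34771840-34772139, plus strand): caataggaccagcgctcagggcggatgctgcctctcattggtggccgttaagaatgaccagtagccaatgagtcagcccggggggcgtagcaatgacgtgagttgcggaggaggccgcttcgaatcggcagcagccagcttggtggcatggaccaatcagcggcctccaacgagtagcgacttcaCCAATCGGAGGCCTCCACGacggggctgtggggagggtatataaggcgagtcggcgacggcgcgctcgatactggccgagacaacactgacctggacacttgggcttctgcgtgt
Calr (chr8:84846882-84847181, minus strand): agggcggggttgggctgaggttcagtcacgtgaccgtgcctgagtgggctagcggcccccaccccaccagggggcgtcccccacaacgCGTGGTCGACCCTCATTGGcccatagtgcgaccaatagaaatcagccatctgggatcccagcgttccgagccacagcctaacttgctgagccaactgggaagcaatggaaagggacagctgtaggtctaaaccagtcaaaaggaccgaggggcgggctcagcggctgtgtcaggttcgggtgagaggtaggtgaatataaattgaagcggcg

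A match is a description of the letters and not a shown binding site. The Herpud1 window held an ER stress response element II that starts 52 bases before the gene start, found in 0.0365% of all 32851 promoter windows, and a C/EBP-ATF element on the opposite strand that starts 112 bases before it. The Hspa5 window held an ER stress response element 65 bases before the gene start and the Calr window one on the opposite strand 162 bases before it, an element present in 0.119% of all windows. The C/EBP-ATF element was present in 3.97% of all windows and in those of 4 members, which are Asns (23 bases before the start), Chac1 (193 bases before it), Herpud1 and Trib3. These 4 genes stood at log2 differences of 0.86, -1.04, -1.05 and 0.08, so genes with this element were found on both sides. The carriers of the ER stress response element, Hspa5 and Calr, stood at 0.07 and 0.37. TGACGTGG matched none of the members' windows and 0.676% of all windows. The letters CCACG alone, which are contained in both ER stress response elements, were in the windows of 7 of the 10 genes and in 32.8% of all windows.

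Differences are given below as log2(intensity + 5) of the congenic array minus the same of the control array, so a negative value is lower in the congenic array. A gene with several probe sets is represented by its brightest one, and a gene counts as expressed when that probe set reaches the array's 50th percentile on at least 1 array, as did 12614 genes. All 10 members were expressed. By a rule of 1.5-fold (0.58 on the log2 scale), 1 of the 10 was higher (10%), beside 7.47% of all expressed genes, and 2 were lower (20%), beside 5.23% of all expressed genes. By a rule of 2-fold, 0 were higher, beside 1.91% of all expressed genes, and 2 were lower, beside 1.45%. The 1 gene higher by 1.5-fold, Asns, reached the 50th percentile on the congenic array alone. When expression was required on both arrays, 9 members remained. Of these, 0 were higher by 1.5-fold, beside 5.68% of genes, and 2 were lower, beside 3.30%. With 10 genes, 1 gene moves such a share by 10 points. The median difference of the members was -0.0019, and that of all expressed genes 0.04. With probe sets ending in a plain _at alone, which leave 7 members, the members' median was -0.56. Other scalings of the arrays placed the members' median between -0.05 and 0.02, and that of all expressed genes between 0.01 and 0.07. Of the 10 genes, 5 were above 0 and 5 below.

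**Figure D1:**
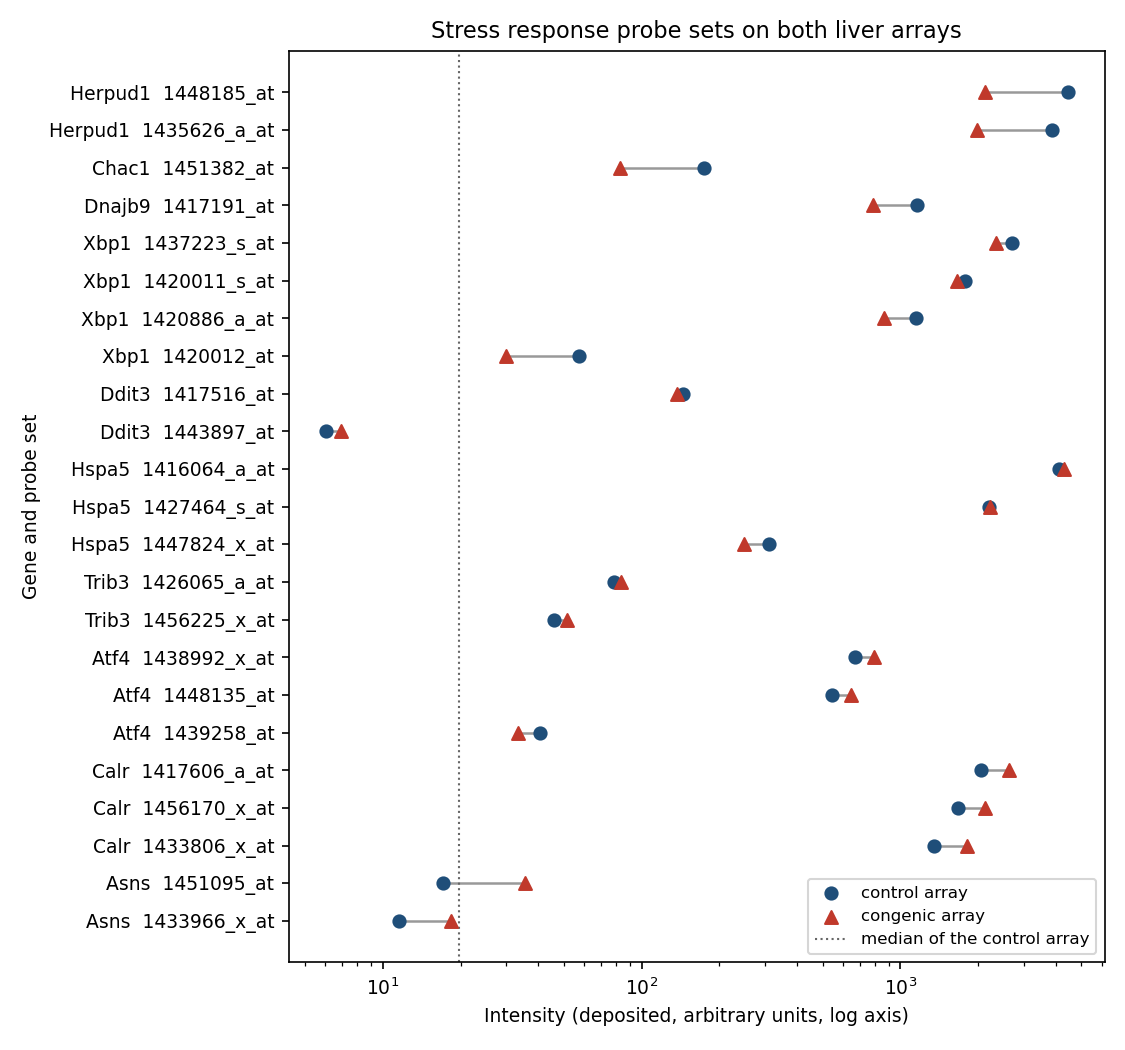
Deposited intensity (log axis) of each of the 23 probe sets of the 10 genes on the control array (circles) and on the congenic array (triangles), with genes ordered by the difference of their brightest probe set. Both probe sets of Herpud1 are lower on the congenic array (2129 against 4422 and 1983 against 3835), while the probe sets of Asns lie near the median of the control array (19.7).

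The transcription factors that carry the stress signal differed little. Atf4, the central factor of the integrated stress response, read 790.3 on the congenic array against 669.7 on the control array in its brightest probe set, a log2 difference of 0.24. The next probe set gave 645 against 545 (0.24), and the dimmest one 33.2 against 40.5 (-0.25), so this last one differed in the opposite direction. ATF4 is regulated mainly through translation of its messenger, which an array does not measure. Ddit3, which encodes the factor CHOP of prolonged stress, stood at 137 against 144 (-0.07), and its other probe set was below the expression filter on both arrays, at 6.88 against 6.05. Trib3, a pseudokinase that ATF4 and CHOP induce and that feeds back on both, stood at 83.0 against 78.4 (0.08) and, in its other probe set, at 51.7 against 46.0 (0.15). These 2 genes and Atf4 lay within 1.5-fold in every probe set.

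Xbp1, the factor made active by IRE1, was lower in the congenic array in all 4 of its probe sets, but by unequal amounts. The brightest stood at 2344 against 2703 (log2 difference -0.20), the next at 1656 against 1768 (-0.09) and a further one at 866 against 1145 (-0.40). The dimmest probe set, at 29.9 against 57.1, differed by -0.83 and is the 1 Xbp1 probe set past 1.5-fold. The probe sets thus spread over 0.74 on the log2 scale, more than those of any other member. The annotation used here does not separate the spliced from the unspliced Xbp1 messenger, so these values describe Xbp1 messenger as a whole.

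Of the known targets of the integrated stress response, Chac1 and Asns were past 1.5-fold in opposite directions. Chac1, an ATF4 and CHOP target, has 1 probe set, which read 82.2 on the congenic array against 174 on the control array, a log2 difference of -1.04. Among 12614 expressed genes, 1.24% were lower by this much or more. Asns, which makes asparagine and is induced by ATF4 when amino acids run short, stood at 35.4 against 17.2 (0.86), and 2.90% of expressed genes were higher by this much or more. Its control value lay at the 47.3th percentile of that array, below the expression filter, and its second probe set lay below the filter on both arrays, at 18.4 against 11.6 (0.50). Both probe sets of Asns were higher on the congenic array, and the difference of the brighter one falls just under 1.5-fold with a pseudocount of 20 (0.57).

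Among genes of ER folding and degradation, Herpud1 differed most. Its brightest probe set read 2129 on the congenic array against 4422 on the control array, a log2 difference of -1.05, and the other 1983 against 3835 (-0.95). The probe sets agree to within 0.10 on the log2 scale. Of the 3154 brightest expressed genes, 24 were lower by this much or more, Herpud1 included. Among these 3154 genes, 2.73% were lower and 3.08% higher by 1.5-fold or more. Dnajb9 (ERdj4), an ER co-chaperone that XBP1 induces and that represses IRE1, stood at 783 against 1161. Its log2 difference of -0.56 is 1.48-fold, just short of the 1.5-fold rule, and 5.66% of expressed genes were lower by this much or more.

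The ER chaperone genes Hspa5 and Calr lay within 1.5-fold. Hspa5 (BiP), the chaperone that holds the sensors inactive, stood at 4273 against 4076 (log2 difference 0.07) and, in a second probe set, at 2212 against 2203 (0.01). The dimmest probe set, at 248 against 311, differed by -0.32. Calr, calreticulin, which folds glycoproteins and binds calcium, was higher in all 3 of its probe sets, at 2634 against 2038 (0.37), 2123 against 1671 (0.34) and 1810 against 1341 (0.43). No probe set of either gene reached 1.5-fold. Over all 23 probe sets of the 10 genes, 1 was higher by 1.5-fold or more, the brighter one of Asns, and 4 were lower, both of Herpud1, that of Chac1 and the dimmest of Xbp1. Of the 23 probe sets 21 were expressed, including all that passed 1.5-fold. Among 20989 expressed probe sets with 1 symbol the shares were 7.22% higher and 6.05% lower.

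**Figure D2:**
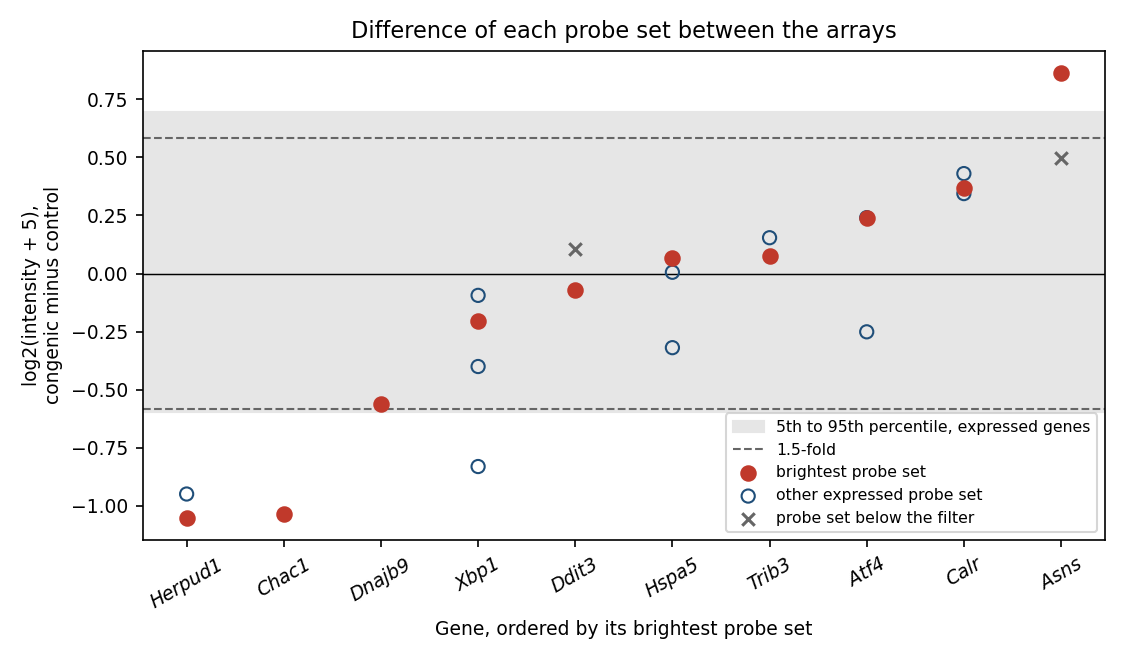
Difference between the arrays, log2(intensity + 5) of congenic minus control, for each probe set of the 10 genes, with the brightest probe set filled, other expressed ones open and those below the expression filter as crosses. Herpud1 (-1.05 and -0.95) and Chac1 (-1.04) lie below the 1.5-fold line and below the range of the middle 90% of expressed genes (-0.60 to 0.70), Asns (0.86) lies above it, and the probe sets of Xbp1 spread from -0.83 to -0.09.

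Disagreement between probe sets of a gene gives a measure of technical spread within this pair of arrays. Over 5195 genes with at least 2 expressed probe sets, the difference of the brightest minus that of the next brightest had an SD of 0.45 on the log2 scale. This SD was 0.29 among the 1299 brightest of these genes, to which Herpud1, Hspa5, Calr, Xbp1 and Atf4 belong by level, and 0.63 among the 1299 dimmest. Among the brightest genes, 95% had a gap between these probe sets of no more than 0.63. The log2 difference of -1.05 in Herpud1 is larger, but it is a difference between arrays, and the gap between its own probe sets was 0.10. The difference of 0.86 in Asns is smaller than the corresponding 1.24 of the dimmest genes. The value of -1.04 in Chac1 is larger than the 0.93 of the 1299 genes next above the dimmest, among which its level lies. By Affymetrix naming, probe sets ending in _s_at or _x_at can also bind related transcripts, which applies to the brightest probe sets of Atf4 and Xbp1 and not to those of Herpud1, Chac1 and Asns. The spread given here covers probe sets read from the same RNA and says nothing about variation between mice. A shift shared by all probe sets of a gene cancels in such a gap. These comparisons therefore do not give the error of a difference between arrays.

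**Figure D3:**
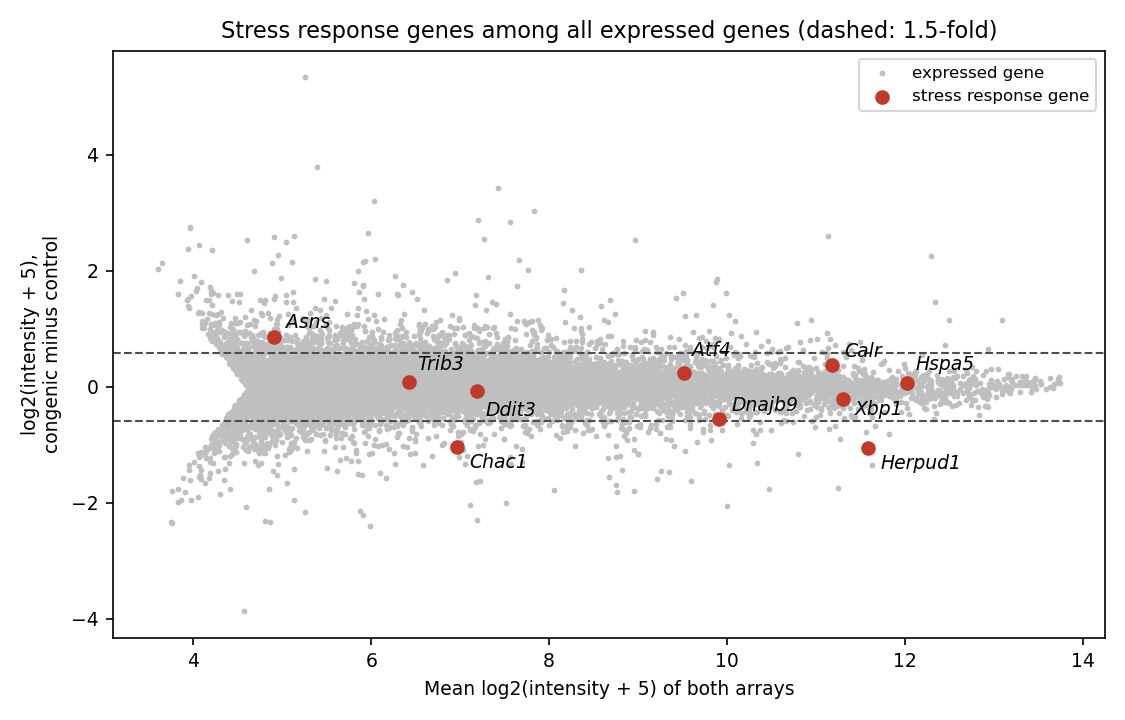
Difference between the arrays against the mean level for 12614 expressed genes (grey) and the 10 stress response genes (red), on the log2(intensity + 5) scale, with dashed lines at 1.5-fold. Herpud1 lies below the line, in the lower tail of the cloud, at a high level. Chac1 lies below the line at a moderate level and Asns above the line at the dim end, where the cloud is widest.

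Other genes of the pathway were taken from 6 lists that do not include the 10 members. Of 115 expressed genes in these lists, 3 were higher by 1.5-fold or more (2.61%, beside 7.47% of all expressed genes) and 5 were lower (4.35%, beside 5.23%). Their median difference was 0.05, and 0.0019 when each gene was read by the median of its probe sets. That reading takes in every probe set of a gene, also those below the expression filter. Probe set ranges given for list genes cover expressed probe sets only. By 2-fold or more, 0 of the 115 were lower and 1 was higher, beside 1.45% and 1.91% of all expressed genes.

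The list of eIF2 kinases and eIF2 control had 14 expressed genes, none past 1.5-fold in either direction, and a median of -0.03. When each gene was read by the median of its probe sets, the list median was -0.12. By that reading 1 gene, Eif2b5, was past 1.5-fold on the lower side at -0.62. The 1 expressed probe set of Eif2b5 stood at -0.16, so the value of -0.62 rests on probe sets below the expression filter. Eif2ak3, which encodes the sensor PERK, was the lowest at 159.6 against 235 (log2 difference -0.55). Eif2ak3 passed 1.5-fold with quantile normalization or with a loess trend removed, but stood at -0.17 by the median of its probe sets, of which 1 was expressed. It was followed by Impact, a regulator of the kinase GCN2, at -0.40, whose other expressed probe set stood at 1.21. Ppp1r15a (GADD34), the stress-induced subunit that directs eIF2 dephosphorylation, differed by -0.19 and Eif2ak4, which encodes GCN2, by 0.07. The highest were Eif2b2, a subunit of the exchange factor of eIF2, at 0.25, and the kinases Eif2ak2 (PKR) and Eif2ak1 (HRI) at 0.24 and 0.19. The probe sets of Eif2b2 ranged from -0.17 to 0.25 and those of Eif2ak1 from -0.52 to 0.19.

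The list of ATF4 and CHOP targets had 29 expressed genes, of which 20 were below 0, with a median of -0.12, beside 0.04 for all expressed genes. The list median was -0.02 when each gene was read by the median of its probe sets, and -0.24 with plain _at probe sets alone. By 1.5-fold or more, 3 were higher (10.3%, beside 7.47% of all expressed genes) and 4 were lower (13.8%, beside 5.23%). Nupr1, a stress-induced chromatin protein, stood at 151 against 67.2 (log2 difference 1.11), and its other probe set differed by 1.02. Fgf21, a hormone of liver that ATF4 and Ppara both induce, stood at 135 against 71.6 (0.87). Aldh18a1, an enzyme of proline synthesis, differed by 0.88 in its brightest probe set, but its 4 probe sets ranged from 0.09 to 0.88. The genes at the other end were Slc7a5, a transporter of large neutral amino acids, at 11.8 against 22.4 (-0.70), the stress-induced transcription factor Atf3 at 219 against 354 (-0.68) and the glycine transporter Slc6a9 at 108 against 176 (-0.68). Slc7a5 lay below the expression filter on the congenic array, and its difference was -0.41 with a pseudocount of 20, under 1.5-fold. The fourth lower gene, Slc38a2, an amino acid transporter, differed by -0.60 and was added to the named genes after its value was seen. Its other expressed probe set stood at 0.16, and with median centring the difference of Slc38a2 was -0.57, under 1.5-fold. Read by the median of all probe sets of a gene, Slc6a9, Slc38a2 and Aldh18a1 were within 1.5-fold. By that reading Vldlr (-0.74) was past 1.5-fold on the lower side and Sesn2 (0.66) on the higher side. The 1 expressed probe set of Sesn2 stood at 0.31. The median of all probe sets gave 3 genes of the list higher and 3 lower, beside 6.01% and 4.51% of all expressed genes. Targets of this arm, like Chac1 and Asns among the 10 genes, were therefore found on both sides.

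The cytosolic aminoacyl-tRNA synthetases, which charge tRNAs and many of which ATF4 induces, did not reach 1.5-fold in either direction. The 12 genes known to be induced had a median of 0.11 (-0.0040 when each gene was read by the median of its probe sets), between Sars at -0.15 and Wars at 0.51, and the probe sets of Wars ranged from -0.10 to 0.51. Gars and Iars stood at 0.26 and 0.23, and Mars and Tars both at -0.05. The other synthetases, 7 expressed genes, had a median of 0.07, with Hars and Farsa at 0.25, Qars at 0.23, Kars at 0.07, Vars at 0.01 and Farsb at -0.01.

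The list of IRE1, XBP1 targets and ER-associated degradation had 29 expressed genes and a median of 0.06, and Derl3 was the 1 gene past 1.5-fold. Derl3, a derlin of the channel through which misfolded proteins leave the ER, stood at 91.4 against 160.1 (log2 difference -0.78). Its relative Derl1 was the highest of the list at 0.32, with probe sets from -0.05 to 0.32. Sel1l and Edem1, which help to deliver glycoproteins to degradation, differed by -0.19 and -0.13. Spcs2, of the signal peptidase, and Sec61b, of the translocation channel, differed by 0.22 and 0.17. Ern1, which encodes IRE1, had a log2 difference of 0.09 and probe sets from -0.48 to 0.43. Herpud1 works in the same degradation complex as several of these genes, and Derl3 was the 1 that differed in its direction by 1.5-fold or more.

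The list of the ATF6 arm, ER chaperones and folding enzymes had 24 expressed genes, none past 1.5-fold, and a median of 0.10 (0.01 when each gene was read by the median of its probe sets). Atf6 itself was the lowest at 203 against 265, and its 3 probe sets ranged from -0.38 to -0.28. Mbtps1, the protease that cuts ATF6 first, followed at -0.25 (another probe set at 0.02) and Creld2, an ER stress-inducible protein, at -0.14. The highest were Fkbp11, a prolyl isomerase of secretory cells, at 0.40, Uggt1, which checks the folding of glycoproteins, at 0.39 (another probe set at -0.02), and Atf6b, the relative of Atf6, at 0.37.

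**Figure D4:**
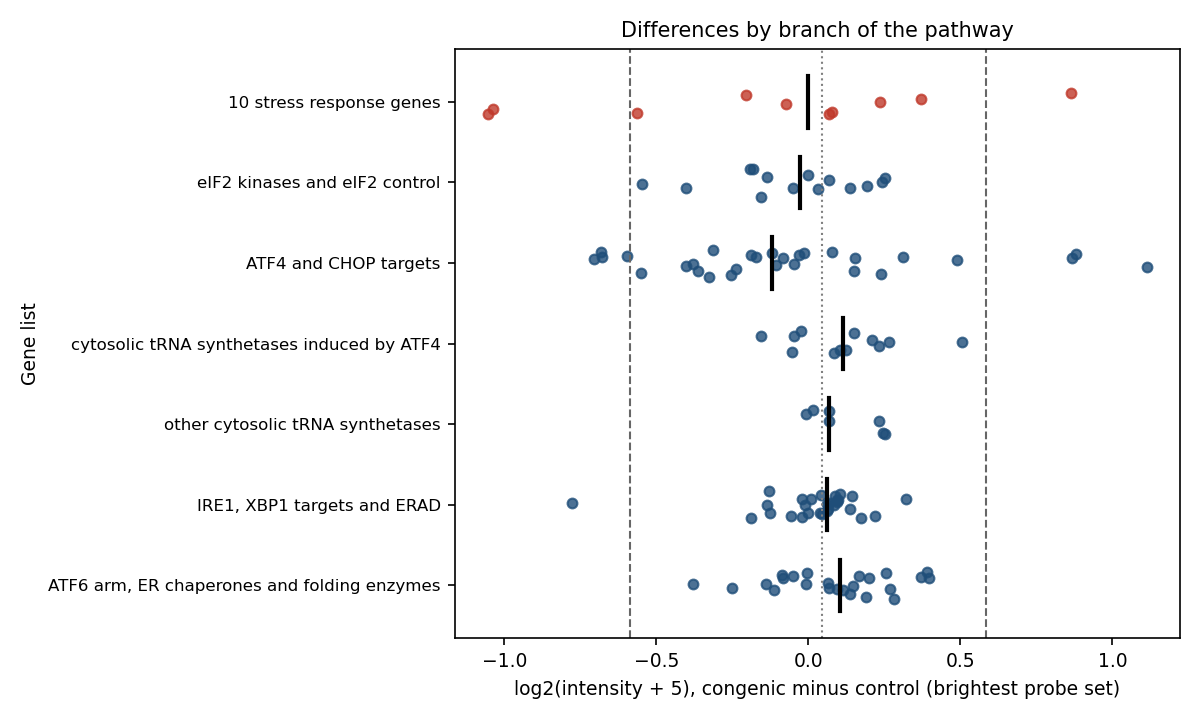
Difference between the arrays, log2(intensity + 5) of congenic minus control, of each expressed gene (points) in the 10 stress response genes and in 6 lists of other pathway genes, with the median of each as a black bar, the median of all expressed genes dotted and 1.5-fold dashed. The lists of chaperones, tRNA synthetases and eIF2 control lie within 1.5-fold, and the ATF4 and CHOP targets spread to both sides (-0.70 to 1.11).

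None of the 10 genes lies on chromosome 1 in the RefSeq gene table (GRCm38.p6). Of the other pathway genes, 7 expressed ones lie on chromosome 1, among them Atf6 and Atf3. Of these 7, 1 was lower by 1.5-fold or more (Atf3) and 0 were higher, beside 6.28% and 9.84% of the 732 expressed genes of the chromosome. Their median was -0.01 and they ranged from -0.68 to 0.39.

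Cells other than hepatocytes also contribute to liver RNA, and in such bulk samples fewer cells of a type and less RNA per cell cannot be told apart. Of 9 expressed hepatocyte markers, none was past 1.5-fold, and they summed to an intensity of 96600 in the congenic against 92794 in the control array, with albumin (Alb) at 14121 against 12910. The extremes were the transcription factor gene Hnf4a at -0.26, with probe sets down to -0.59, and the fibrinogen gene Fgb at 0.17. Immune markers were higher in the congenic array. The counts that follow are by 1.5-fold or more, by which 7.47% of all expressed genes were higher and 5.23% lower. Of 10 neutrophil markers 8 were higher and none lower (summed intensity 12809 against 5181), of 10 macrophage and Kupffer cell markers 7 were higher and none lower (27022 against 17350), and of 9 expressed B and plasma cell markers 6 were higher and none lower (5760 against 4510). Single bright genes carry much of these sums. Without Sdc1, which stood at 4567 against 4195, the other 8 B and plasma cell markers summed to 1193 against 315, and without Lcn2 the other 9 neutrophil markers summed to 4219 against 1328. The extremes of these lists were Camp (3.78) and Csf3r (0.01), Marco (1.85) and Cd5l (0.19), and Jchain (2.87) and Sdc1 (0.12). Plasma cells are known for a high level of XBP1 and ER chaperones. Of 10 pancreatic acinar markers, 4 were expressed and 1 of them was higher, 2210010C04Rik (2.16), while Cela2a was the lowest (-0.11) and Cpa1 and Cpb1 stood at 1 in the control array. No marker was listed at 0. The part of these cells in the differences of the 10 genes was not tested.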

How the data were processed

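The deposited table gives 1 intensity per probe set and array on a linear scale, and the sources used here do not say how the authors made these values from the scans. Biotin-labelled cRNA came from 8 µg total RNA, per the labels. The arrays had median intensities of 19.3 (congenic) and 19.7 (control), and the values were used as deposited. Control probe sets (64) were left out. Genes were named from probe sets with 1 symbol in the platform annotation, and symbols of the lists were matched to it directly or through gene IDs of the RefSeq table (119 of 124 pathway genes). The brightest probe set of a gene had the highest mean of log2(intensity + 5). No test was possible with 1 array per group, and precision is limited by that number.

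The members and lists were chosen with earlier results of these data known. Named genes are all 10 members with every probe set, the 3 highest and 3 lowest of each pathway list, the sensors with Ppp1r15a and Atf3, and the extremes of each marker list, beside Alb. Eif2b5, Jdp2, Vldlr and Sesn2 are named too, because they passed 1.5-fold under an alternative. Alternatives were other scalings, pseudocounts, filters, probe set rules and fold rules. The code was run on simulated arrays with planted changes well past the 1.5-fold rule. Their noise was smaller than the probe set spread given above, so that run does not give the error of these arrays. Python 3.11.15, pandas 2.3.3 and statsmodels 0.14.6 were used.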

Additional observations from a re-analysis of the deposited data

How the results depend on the processing

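The 2 members lower by 1.5-fold or more, Herpud1 and Chac1, stayed past that size under quantile normalization, median centring, a loess correction (span 0.3), no pseudocount or one of 20, both other filters, the median over probe sets and the 2-fold rule, and Xbp1 joined them when only probe sets ending in a plain _at were used. Asns depended on the setting. The count of members higher was 0 with a pseudocount of 20 (beside 4.34% of all expressed genes) and 0 with the 2-fold rule. It was also 0 when expression was required on both arrays, where Asns is left out. A smaller rule (0.32 on the log2 scale) gave 2 members higher, beside 18.7% of all expressed genes. That rule adds Calr on the higher side and Dnajb9 on the lower side, where 13.6% of all expressed genes lay. With plain _at probe sets the median of the members was -0.56, because Hspa5, Calr and Trib3 have no such probe set and Xbp1 is then read by its dimmest one (-0.83). For the 115 other pathway genes the counts were 8 higher and 13 lower with the smaller rule, beside 18.7% and 13.6% of all expressed genes. With 2-fold they were 1 higher and 0 lower, beside 1.91% and 1.45%. With quantile normalization or the loess correction, 1 gene of the eIF2 list (Eif2ak3) was lower by 1.5-fold or more, as was another (Eif2b5) with the median over probe sets. The 4 lower ATF4 and CHOP targets were 3 with a pseudocount of 20 or expression on both arrays (without Slc7a5) and with median centring (without Slc38a2). Their count was 5 with quantile normalization or the loess correction, which add Jdp2 (-0.61 and -0.60). It was also 5 with plain _at probe sets, which add Vldlr (-0.83). The median over probe sets gave 3 and the smaller rule 9. Choosing the brightest probe set by the mean of linear intensities, an alternative added after seeing the data, changed no count of members. No paired analysis was possible because each group has 1 array. The lack of replicates limits all of these values.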
